A study of Rattus norvegicus with 5 samples.

Results

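The signal of 4736 genes was described in the hippocampus of control diet rats labelled P5, from the 2 arrays of that group among the 5 arrays of the series. The series is a study of hippocampal development after fetal alcohol exposure, and its other 3 arrays, of an alcohol-exposed and an isocaloric group, were not used here. Each array was hybridised with total RNA from 1 sample of hippocampus and holds 8799 probe sets, of which 59 are control probe sets and 7006 of the others carry exactly 1 gene symbol. Those 7006 were ordered by their mean deposited intensity over both arrays, a linear brightness value with no unit, and each gene took the value of its brightest probe set. The labels name the age only as P5, do not say that the samples came from separate animals or from pools, and strain and sex are not used here. The 2 samples are therefore a spread that may in part be technical, no test was made, and the number of arrays limits the precision.

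In the first postnatal week the rat hippocampus is still being built. Most pyramidal neurons are already in place, granule cells of the dentate gyrus are still being born from local progenitors, axons and dendrites are growing, astrocytes are maturing, and most myelin and most synapses are yet to form. Receptor subunits, chloride transporters and structural proteins are replaced over the following weeks by forms typical of the adult. The suckling brain burns ketone bodies beside glucose.

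The level of a gene is given below as its intensity on the first and the second array, in that order, and as its percentile, the percent of the 4736 genes with a mean at or below its own. Bright means the highest 10% of genes, 474 genes with a mean of at least 472.3, and dim means the lowest 40%, 1894 genes with a mean of at most 47.5. The median gene had a mean intensity of 71.6, and the means ran from 0.118 to 7519. Bright genes held 60.2% of the summed signal, the 25 brightest genes held 12.3% and the dim genes 3.47%. A probe set's brightness depends on its probes as well as on the RNA, so the order is one of signal and not of RNA amount. Among the 1565 genes with at least 2 probe sets, the probe sets of 1 gene lay a median of 18.9 percentile points apart, and 198 genes (12.7%) spanned more than 50 points. In bulk tissue, fewer cells of a type and less RNA per cell cannot be told apart.

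The arrays agreed closely for bright genes and less well for dim ones. Of all genes, 82.3% lay within 1.5-fold on both arrays and 6.06% differed by more than 2-fold. Within the lowest 10% of genes 65.0% lay within 1.5-fold, within the fifth group of 10% it was 85.4%, and within the highest 10% it was 94.9%. The SD of the difference between the arrays was 0.35 on the log2(intensity + 10.6) scale. Across genes, which are not replicates, the rank correlation of the arrays was 0.979. The 474 brightest genes of each array had 434 genes in common, 91.6% of each list, and the 25 brightest had 21 in common.

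Control probe sets set the scale at the dim end. The 19 bacterial and yeast probe sets with no sign of added RNA had a median mean of 5.37 and a highest mean of 15.1, and 891 genes (18.8%) lay at or below that highest value. The 15 antisense control probe sets reached 93.8, above the mean of 57.7% of genes, so a middling value does not show by itself that an RNA was present. The ratio of 3′ to 5′ signal was 1.32 and 1.34 for beta-actin and 0.878 and 0.895 for GAPDH, close to each other on both arrays.

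**Figure D1:**
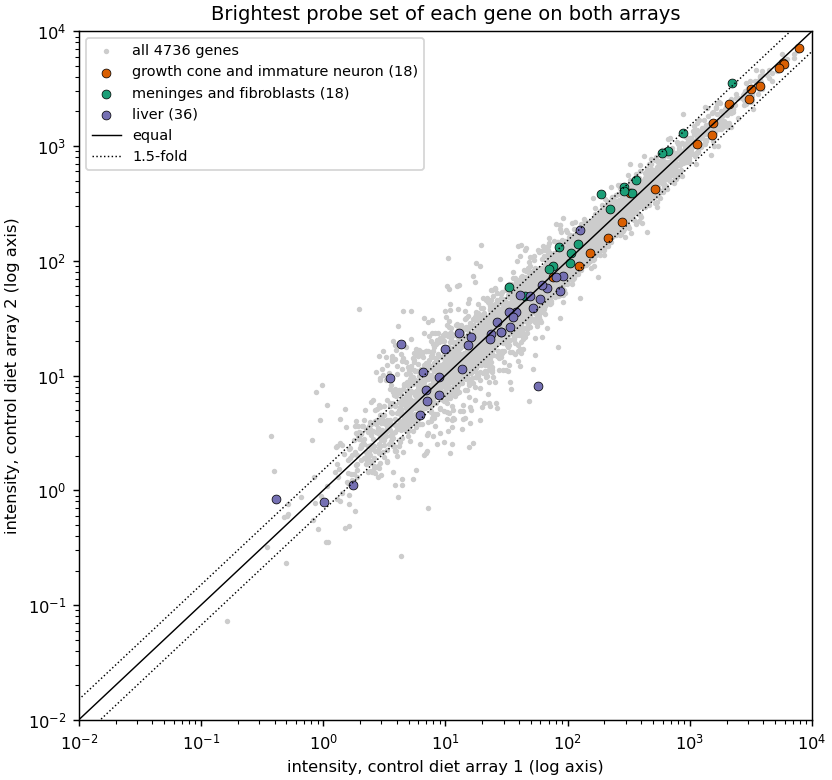
Intensity of the brightest probe set of each of 4736 genes on the first (x axis) and second (y axis) control diet array, both on log axes, with the line of equality and the lines of 1.5-fold difference. Coloured points are 18 growth cone and immature neuron genes, 18 meninges and fibroblast genes and 36 liver genes. The cloud narrows towards the bright end, 17 of the 18 meningeal genes lie above the line, and no liver gene is among the bright genes.

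The brightest genes were those of the cytoskeleton, the ribosome and the mitochondrion, with several of the growing neuron. Tubb2b, a beta-tubulin of immature neurons, was the brightest gene of all, at 7843 and 7195. Tubb5, another beta-tubulin, read 7569 and 6745, and Tuba1b, an alpha-tubulin, 5667 and 4972. The cytoplasmic actins followed, with Actg1 at 7087 and 6330 and Actb at 5745 and 6276, and the actin-monomer binding peptide Tmsb4x read 5808 and 5329. Near-identical tubulins or actins may share probes, so these values may not come from the named gene alone. Microtubules and actin filaments are the frame on which axons and dendrites extend.

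The other genes of the top 25 were of several functions. Nnat, neuronatin, a small membrane protein of developing brain, read 5895 and 5211, the microtubule-binding protein tau (Mapt) 5427 and 4741, and the neuronal reticulon Rtn1 5227 and 4492. The 3 mitochondrially encoded subunits of cytochrome oxidase that were measured were all there, COX1 at 7168 and 5810, COX3 at 6119 and 4948 and COX2 at 4462 and 3917. Oaz2, an antizyme that restrains polyamine synthesis, read 5743 and 5497. The stimulatory G protein gene Gnas, at 4675 and 4357, the proton pump subunit Atp6v0c, at 4285 and 4138, and the 14-3-3 protein gene Ywhah, at 4753 and 3664, were also among them. The chaperone gene Hsp90ab1 read 3788 and 4102 and the lysosomal saposin precursor Psap 3776 and 3821. Ribosomal protein genes supplied Rps29, at 5806 and 5583, Rplp0, at 4448 and 4612, Rpl27a, at 3473 and 4628, and Rps16, at 3794 and 3958. The last 3, Ttr, Hbb and Apoe, are described with their cell types.

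Families by gene symbol, formed after the values were seen, ran the same way. Of 37 cytosolic ribosomal protein genes 33 were bright and 1 was dim, with a median percentile of 98.4, and 23 of them stood among the 100 brightest genes. Their lowest member, Rpl5, read 37.9 and 22.8. All 6 genes of the 14-3-3 family, adaptors that bind phosphorylated proteins, were bright. Of the 24 proteasome genes 10 were bright and 2 were dim, from Psmb5 at 2191 and 2537 down to Psmd10 at 32.1 and 26.2. The 5 tubulin genes held 3 bright ones, while Tuba4a read 163 and 199 and Tubg1, the tubulin of the centrosome, read 110 and 149.

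Bright and dim genes also differed in the sequence before their start. Promoters of genes used in most cells are often rich in CG pairs, while those of genes of 1 tissue often are not. The 250 bases before the start of 4 genes are shown, chosen after their values and sequences were seen: 2 bright genes of growing neurons with many CG pairs, 1 bright gene with few and 1 dim gene of another tissue. They come from RefSeq on the rat build GRCr8 and are written 5′ to 3′ on the gene's strand, with CG pairs in capitals. Tubb2b lies at chr17:30952836-30953085 on the plus strand, Stmn1 (stathmin, which destabilises microtubules) at chr5:151964929-151965178 on the plus strand, Sparc (a secreted matrix glycoprotein made by astrocytes and vessels) at chr10:40038817-40039066 on the minus strand, and Amy2a3 (a pancreatic amylase of a multigene family) at chr2:204014413-204014662 on the minus strand.
Tubb2b: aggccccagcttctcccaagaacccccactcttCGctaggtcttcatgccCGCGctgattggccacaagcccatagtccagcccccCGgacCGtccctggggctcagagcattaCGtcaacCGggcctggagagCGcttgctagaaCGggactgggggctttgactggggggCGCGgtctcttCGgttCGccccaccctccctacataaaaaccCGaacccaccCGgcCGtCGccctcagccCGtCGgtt
Stmn1: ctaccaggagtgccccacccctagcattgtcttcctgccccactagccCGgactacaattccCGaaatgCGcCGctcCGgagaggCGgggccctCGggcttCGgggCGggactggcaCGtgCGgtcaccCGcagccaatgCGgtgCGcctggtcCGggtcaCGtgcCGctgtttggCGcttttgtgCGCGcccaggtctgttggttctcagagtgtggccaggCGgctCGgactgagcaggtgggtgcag
Sparc: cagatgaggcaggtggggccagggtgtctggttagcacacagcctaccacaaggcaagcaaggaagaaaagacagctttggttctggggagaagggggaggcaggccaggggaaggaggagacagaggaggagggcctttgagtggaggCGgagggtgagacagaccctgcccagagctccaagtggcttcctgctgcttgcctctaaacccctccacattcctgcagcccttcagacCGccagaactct
Amy2a3: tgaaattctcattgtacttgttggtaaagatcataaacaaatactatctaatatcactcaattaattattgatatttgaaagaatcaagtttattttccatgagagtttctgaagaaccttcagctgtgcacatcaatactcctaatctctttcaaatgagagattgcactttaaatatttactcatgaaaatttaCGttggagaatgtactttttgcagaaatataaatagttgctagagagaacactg
In these 250 bases Tubb2b had 19 CG pairs, Stmn1 22, Sparc 2 and Amy2a3 1. The letters TATAAA stood 27 bases before the start in Amy2a3 and on neither strand of the other 3. On the arrays Stmn1 read 3748 and 3336 and Sparc 3323 and 2119, while Amy2a3 read 24.7 and 22.2.

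Over all genes the share of CG-rich promoters rose with intensity. RefSeq held a promoter of 300 bases, 250 before and 50 after the start, for 3879 of the 4736 genes. The CG ratio, the count of CG pairs over the count that the C and G content would give, was above 0.6 in 32.1% of promoters in the lowest 10% of genes, in 59.0% in the fifth group of 10% and in 81.1% in the highest 10%, against 59.2% over all genes on the array and 36.8% of all 27457 RefSeq promoters. The letters TATAAA, searched on both strands, were in 18.3% of promoters in the lowest 10% of genes, in 5.15% in the eighth group and in 9.34% in the highest 10%, against 11.3% over all genes on the array and 14.3% of all RefSeq promoters. Among genes of the liver, pancreas, muscle, kidney, gut and reproductive lists, 5.08% of 118 promoters had a CG ratio above 0.6 and 40.7% held TATAAA. The Sparc promoter, with a CG ratio of 0.108, shows that a low ratio and a high signal can go together. A match of letters is a description of the sequence and not of a bound factor, and these shares are over the genes this array carries.

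**Figure D2:**
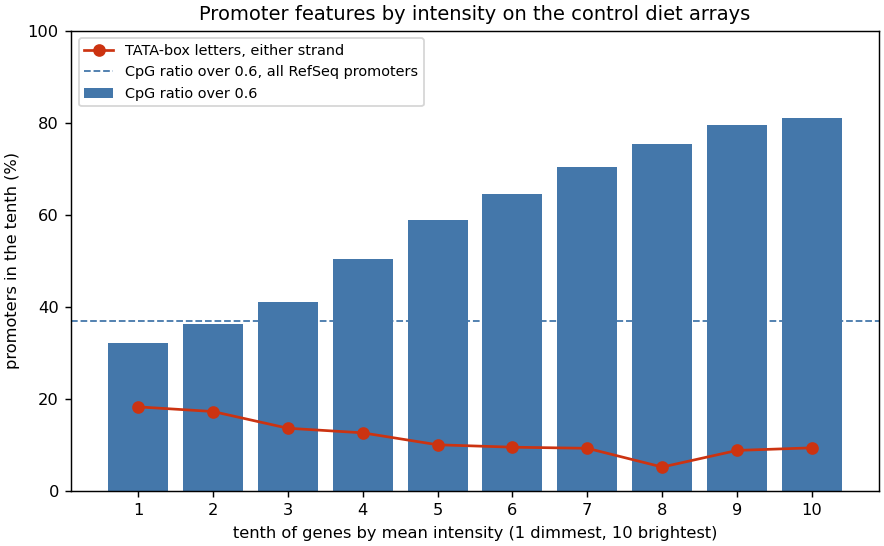
Share of promoters (y axis, percent) in 10 groups of genes ordered by mean intensity (x axis, 1 dimmest, 10 brightest). Bars are promoters with a CG ratio above 0.6, the line is promoters with TATAAA on either strand, and the dashed line is the CG-rich share of all RefSeq promoters. The bars rise from 32.1% to 81.1%, and the line is highest, at 18.3%, in the dimmest group.

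Marker lists of 15 cell types held 170 measured genes, of which 40 were bright and 48 were dim. Neurons and astrocytes led. The 15 measured markers of neurons in general had a median percentile of 92.5, with 9 bright and none dim. Uchl1, a ubiquitin hydrolase abundant in neurons, read 3855 and 3643, and Gap43, the growth-associated protein of axon endings, 3029 and 2563. The vesicle protein gene Syp read 1243 and 978, the neurofilament gene Ina 975 and 755, the surface glycoprotein gene Thy1 752 and 755 and the adhesion molecule gene L1cam 785 and 703. At the lower end of the list stood the calcium sensor Vsnl1, at 87.9 and 102, the heavy neurofilament gene Nefh, at 88.9 and 89.1, and the vesicle calcium sensor Syt1, at 53.6 and 67.9.

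Of 15 measured markers of hippocampal excitatory neurons 4 were bright and 2 dim, with a median percentile of 71.9, beside 78.5 for 2 genes of thalamus, 57.2 for 5 of cerebellum and 55.2 for 9 of striatum. Most of these markers are shared with other forebrain neurons, so they do not tell the hippocampus from a neighbouring region. Camk2b, a subunit of calmodulin-dependent kinase, read 2030 and 1860. Nrgn, neurogranin, a calmodulin-binding protein of dendrites, read 1536 and 1546, the neurochondrin gene Ncdn 946 and 908 and the hippocampal calcium sensor gene Hpca 600 and 570. The phosphatase gene Ppp3ca, at 334 and 297, and the granule cell transcription factor gene Neurod1, at 241 and 251, were next. The muscarinic receptor gene Chrm1 read 53.3 and 66.8. The 2 dim genes were Camk2a, at 40.6 and 12.0, and the vesicular glutamate transporter gene Slc17a7, at 3.55 and 5.72. Both are known to rise steeply after birth, and Slc17a7 lay below the highest bacterial or yeast control. Prox1, Zbtb20 and Wfs1, which mark hippocampal fields, were not analysed here.

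Inhibitory neuron markers were spread over the whole range, with 4 bright and 4 dim of 15 and a median percentile of 56.3. The somatostatin gene Sst read 1107 and 1268, the vesicular GABA transporter gene Slc32a1 731 and 703, the cholecystokinin gene Cck 538 and 617 and the calretinin gene Calb2 501 and 594. Npy, at 384 and 465, and the GABA-synthesising enzyme gene Gad1, at 392 and 362, followed just below the bright genes. Parvalbumin (Pvalb), which marks a class of interneurons that matures late, read 36.7 and 40.3, and so was dim, as were Vip, at 19.1 and 24.7, and Nos1, at 16.2 and 22.4. The markers of this list read higher on the second array in 12 of 15 cases (80%), against 48.9% of all genes. Of the 4 measured markers of Cajal-Retzius cells, early-born cells that guide lamination, Reln, at 1136 and 1090, and Calb2 were bright. Both transcription factor genes of that list were dim, Lhx5 at 4.39 and 3.87 and Lhx1 at 1.42 and 2.46. Calb2 also stands in the inhibitory neuron and thalamus lists. The median percentile of the Cajal-Retzius list was 48.2, and 4.81 without genes of several lists.

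Astrocyte markers had the highest median percentile of the cell type lists, 95.8, with 9 bright and 2 dim of 17, though over genes with a single probe set the median was 70.0. Apoe, the lipoprotein of astrocytes, read 3920 and 4181, and the protease inhibitor Cst3 2901 and 3557. Glutamine synthetase (Glul) read 2227 and 1964, the matrix protein gene Sparcl1 1747 and 1676 and the aldolase gene Aldoc 1142 and 1377. The glutamate transporter gene Slc1a3, which appears early in astrocytes and radial glia, read 1135 and 876. Slc1a2, the transporter that becomes dominant later, was dim, at 35.2 and 58.2, as was the bicarbonate transporter gene Slc4a4, at 38.2 and 54.2. The water channel gene Aqp4 read 47.6 and 65.4. Glutamine synthetase, Aldoc and Slc1a3 also stand in metabolic or transporter lists, and Gfap was not analysed here.

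Of 15 measured markers of radial glia and progenitors 4 were bright, 9 lay between the limits and 2 were dim, with a median percentile of 78.0. The intermediate filament gene Vim read 599 and 807, and the inhibitors of differentiation Id2 and Id3 read 707 and 630 and 682 and 654. Dbi, an acyl-CoA binding protein, read 603 and 510, and Fabp7, the fatty acid binding protein of radial glia, 540 and 296. The phosphatase gene Ptprz1 read 254 and 270, and Hes1, a Notch target, read 90.7 and 123. Pax6 and Neurog1, transcription factors of early neurogenesis, were dim, at 17.6 and 6.14 and at 8.32 and 12.4.

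In the oligodendrocyte lineage, the precursor list had a higher median percentile than the myelin list. The 7 measured precursor markers had a median percentile of 78.5, and the 9 measured myelin markers 34.8, with 6 of these dim and none bright. With the median probe set of each gene these medians were 61.1 and 38.7, and over genes with a single probe set 63.1 and 42.8. The proteoglycan genes Cspg5, at 1433 and 1415, and Bcan, at 553 and 726, were bright, Ncan read 331 and 249, and the growth factor receptor gene Pdgfra read 231 and 226. The proteoglycans Cspg4 and Vcan read 78.1 and 101 and 77.9 and 84.3. Sox10, a transcription factor of the whole lineage, was dim, at 27.5 and 43.0. Among myelin genes Cnp read 161 and 160, Pmp22 136 and 175 and Mag 137 and 151. Myelin basic protein (Mbp) read 23.0 and 42.7, Mog 67.5 and 26.1 and Mobp 24.7 and 17.2, all dim. The myelin lipid genes Mal, at 44.4 and 31.0, and Ugt8, at 39.2 and 34.9, and the small heat shock protein Cryab, at 31.7 and 30.6, were dim too. Since probes differ between genes, the gap between the lists is one of signal, and which cells gave the proteoglycan signal was not tested.

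By the mean of both arrays, no microglial, endothelial or pericyte marker was bright. Of 17 measured microglia and leukocyte markers 9 were dim. The cysteine protease gene Ctss read 226 and 323, and the complement genes C1qb and C1qc read 162 and 354 and 86.0 and 136. The leukocyte phosphatase gene Ptprc read 117 and 87.3, Cd4 45.5 and 128 and lysozyme (Lyz2) 56.2 and 84.1. The antigen presentation gene Cd74 read 9.19 and 8.25 and the integrin gene Itgam 10.5 and 6.52. The receptor gene Csf1r, needed by microglia, read 6.0 and 5.42, below the highest foreign control on both arrays. Of 12 endothelial markers 6 (50%) were dim, and the brightest was the glucose transporter gene Slc2a1, at 312 and 554, which astrocytes also use. On the second array alone Slc2a1 was bright. The carrier Slco1a4 read 110 and 94, the tight junction gene Ocln 77.4 and 71.4 and Nos3, which makes nitric oxide, 56.1 and 79.6. The adhesion molecules Pecam1 and Icam2 read 57.0 and 67.2 and 14.6 and 14.2, the growth factor receptor gene Kdr read 46.3 and 62.1, and the drug exporters Abcb1a and Abcb1b read 4.38 and 3.35 and 3.00 and 4.50. Of 11 pericyte and smooth muscle markers 5 were dim. Smooth muscle actin (Acta2) read 297 and 263 and the growth factor receptor gene Pdgfrb 51.5 and 56.2. Between them stood the channel subunit Abcc9, at 167 and 145, the peptidase gene Anpep, at 124 and 127, the myosin light chain gene Myl9, at 135 and 97.5, and Tagln, at 73.1 and 68.2. Other probe sets of Acta2 read 166 and 205 and 95.9 and 40.8, and those of Abcc9 43.5 and 33.1 and 4.11 and 8.29. The contractile genes Tpm2, Cnn1 and Des were the lowest, at 15.8 and 16.5, 10.2 and 11.8, and 8.98 and 7.87.

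Some genes of tissues at the hippocampal border were among the brightest. Transthyretin (Ttr), the thyroid hormone carrier of the choroid plexus, read 6228 and 5728 and ranked sixth, yet the list it belongs to had a median percentile of 48.4 with 3 of 8 dim. The other choroid plexus genes ran from Enpp2, at 145 and 196, and Sostdc1, at 133 and 137, through the water channel gene Aqp1, at 79.5 and 86.5, the serotonin receptor gene Htr2c, at 55.9 and 50.7, and the prolactin receptor gene Prlr, at 39.6 and 41.4, down to the anti-ageing protein gene Kl, at 21.6 and 24.4, and the potassium channel gene Kcnj13, at 3.30 and 1.75. The 3 measured ependymal markers were all dim, with Foxj1, the master gene of motile cilia, at 49.4 and 40.5, Rsph1, of the ciliary axoneme, at 42.2 and 39.9, and the dynein gene Dnah7 at 7.0 and 16.3. Of 5 red blood cell markers the globin genes Hbb, at 3881 and 4465, and Hbb-b1, at 2382 and 2641, were bright. Near-identical globin copies may share probes, so the 2 values are not independent. The heme synthesis gene Alas2 read 290 and 372, the anion exchanger gene Slc4a1 177 and 152 and the Rh-associated protein gene Rhag 36.3 and 20.8.

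Genes of the meninges and of fibroblasts had a median percentile of 81.6, with 4 bright and 2 dim of 18. The prostaglandin synthase Ptgds read 2230 and 3542, collagen Col1a1 886 and 1307, Igfbp2 670 and 909 and Igf2, a growth factor of meninges and choroid plexus, 592 and 861. Fibronectin (Fn1) read 364 and 506 and collagen Col1a2 290 and 436. At the lower end stood the proteoglycan Dcn, at 70.0 and 84.5, the proteoglycan Lum, at 44.8 and 49.7, and the complement inhibitor gene Serping1, at 33.1 and 59.6. The second array was higher for 17 of these 18 genes, the exception being Fbln5 at 105 and 95, against 2314 of all 4736 genes (48.9%). The median difference was 0.45 on the log2(intensity + 10.6) scale, against -0.01 for all genes, and the summed signal of the list was 6715 and 9794. Lgals1, a galectin of fibroblasts, differed by 2.05-fold, at 188 and 385; it and Fbln5 were named after their values were seen. The cause of the difference was not tested.

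**Figure D3:**
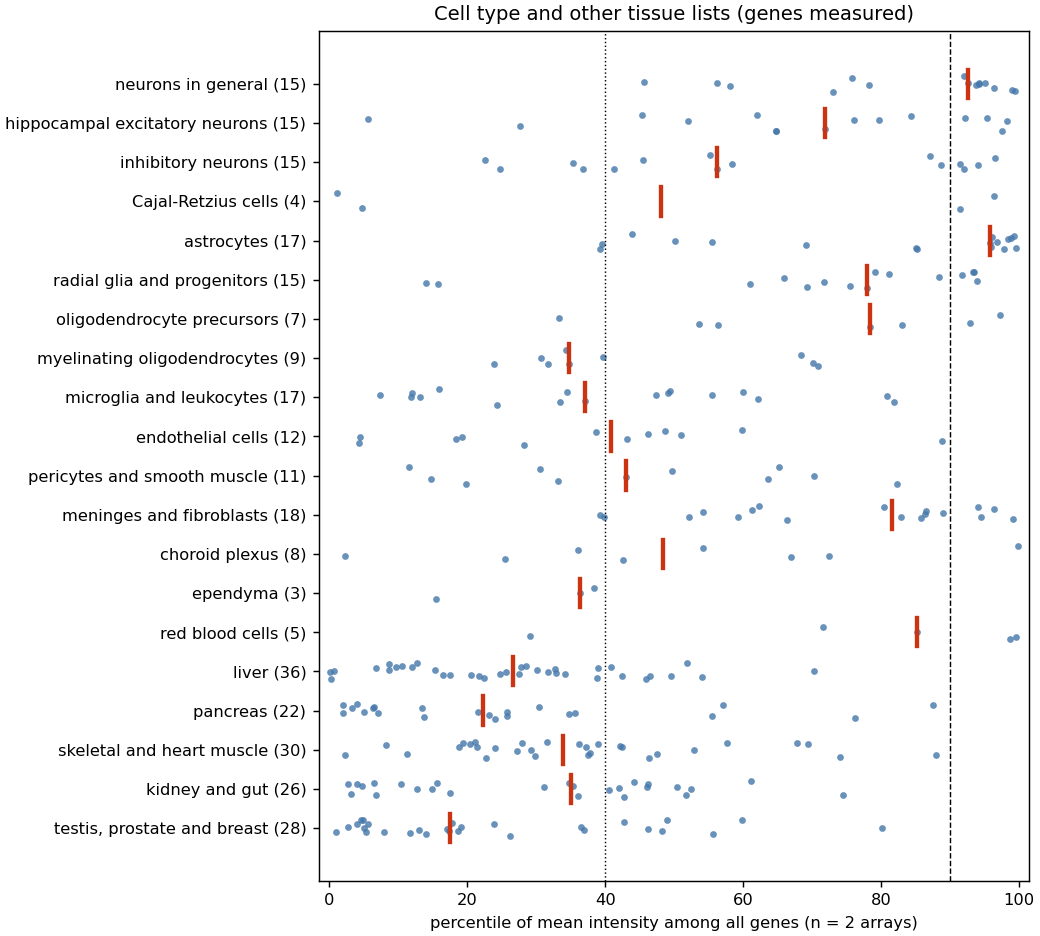
Percentile of mean intensity over 2 arrays (x axis) for each measured gene (points) of 15 cell type lists and 5 lists of other tissues (y axis, number of genes in brackets), with the list's median as a red bar. The dotted and dashed lines mark the dim and bright limits. Astrocyte and general neuron markers have their medians beyond the bright limit, at 95.8 and 92.5, while all 5 lists of other tissues have medians in the dim range and no bright gene.

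The growth cone and immature neuron list had the highest median percentile of the stage lists. It was written with earlier results of these data known, and which cells gave its signal was not tested. The 18 measured growth cone and immature neuron genes had a median percentile of 97.4, with 11 bright and none dim. Beside Tubb2b, Tmsb4x, Nnat and Mapt these were Stmn1, the semaphorin-response protein gene Crmp1, at 3159 and 3127, Gap43, the membrane phosphoproteins Basp1, at 2113 and 2313, and Marcks, at 1137 and 1043, the actin regulator Pfn1, at 1560 and 1594, and the surface protein gene Cd24, at 1535 and 1242. The lowest members were Dpysl2, a microtubule assembly factor, at 153 and 116, Map1b, a microtubule protein of growing axons, at 125 and 90.6, and the transcription factor gene Sox11, at 76.7 and 72.7. The list's signal was lower on the second array for 15 of its 18 genes, against 2422 of all 4736 genes. The median difference was -0.17 on the log2(intensity + 10.6) scale, and the summed signal was 42947 and 39164. On the same array the meningeal genes were higher, and their part in this difference was not tested.

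Synaptic genes were already bright in part. Of 28 measured mature synapse and axon genes 7 were bright and 7 dim, with a median percentile of 72.5. The vesicle fusion protein gene Vamp2 read 3168 and 2418, the fusion partner gene Stx1a 1081 and 1346, and the vesicle GTPase gene Rab3a 820 and 804. Sv2b read 646 and 511, and Nrgn and Syp have been given above. The lowest members were Camk2a, the NMDA receptor subunit Grin2a, at 20.5 and 29.0, and the potassium channel Kcna2, at 3.18 and 3.17. Vesicle genes themselves ran over a wide range, with Syt1 at percentile 45.7.

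Proliferation genes lay mostly in the middle of the range, with 1 bright and 4 dim of 18 and a median percentile of 62.2. Cdk4, which drives entry into the cell cycle, read 530 and 803. The histone variant gene H2az1 read 449 and 312, the cyclins Ccnd2 and Ccnd3 294 and 342 and 232 and 362, and Pcna, the sliding clamp of DNA replication, 209 and 271. Ccnd1 read 179 and 250. The lowest were the nucleotide synthesis enzyme gene Tyms, at 5.71 and 17.1, the cell cycle inhibitor gene Cdkn1b, at 7.06 and 2.20, and the kinase gene Cdk2, at 4.98 and 2.98.

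Activity genes, which neurons switch on within minutes of firing, had no bright member, 3 dim of 14 and a median percentile of 64.8, which was 27.0 over genes with a single probe set. Egr1 read 314 and 276, Nr4a3 339 and 244, Jun 185 and 273, the growth factor gene Bdnf 178 and 197, Arc 172 and 192 and Egr4 166 and 156. A second probe set of Bdnf read 139 and 117, and its others were lower, from 28.4 and 22.3 down to 9.02 and 12.7. Egr2, Egr3 and Jund were dim, at 18.0 and 18.3, at 11.8 and 19.4, and at 11.4 and 10.1. Of these 14 genes, 9 (64.3%) were higher on the second array, against 48.9% of all genes.

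Gene forms listed here as early or as late in development were set side by side. The 15 measured early forms had a median percentile of 66.7, with 4 bright and 1 dim, and the 10 measured late forms 46.6, with 1 bright and 5 dim. Over the upper 60% of probe sets alone, which drops the dim members, the medians were 48.3 and 48.7. Grin2b, the NMDA receptor subunit of the newborn forebrain, read 105 and 126, and its successor Grin2a 20.5 and 29.0. The sodium channel Scn3a, typical of fetal brain, read 152 and 182, and Scn1a 9.36 and 20. The matrix protein Tnc read 229 and 166, and Tnr, of mature perineuronal nets, 8.04 and 11.8. Camk2b read 2030 and 1860 and Camk2a 40.6 and 12.0, and Ina read 975 and 755 and Nefh 88.9 and 89.1. In each of these 5 pairs the early form lay at the higher percentile on both arrays.

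The other pairs did not run that way throughout. The chloride importer gene Slc12a2, which keeps GABA excitatory in young neurons, was the 1 dim early form, at 46.4 and 45.3, while the exporter gene Slc12a5 read 265 and 283, at percentile 81.8. The GABA-A subunit Gabra2 read 56.7 and 74.3 and the late subunit Gabrd 132 and 151. The values of Grin2d (146 and 121) and Grin2c (125 and 132), and those of the glycine receptor subunits Glra2 (43.4 and 64.6) and Glra1 (39.6 and 45.1), overlapped between the arrays. The translation factors Eef1a1, at 3206 and 2749, and Eef1a2, of mature neurons and muscle, at 1314 and 1356, were both bright. In that pair the early form, Eef1a1, was the higher on both arrays. Further early forms were Eno1, at 3633 and 3654, Gabra5, at 401 and 303, Grin3a, at 104 and 91.0, the gap junction gene Gjb2, at 92.6 and 73.6, and Gria4, at 54.8 and 52.7. The probes of the 2 genes of a pair differ, so these values do not give the ratio of the 2 RNAs. Of the 10 late forms 9 (90%) were higher on the second array, the exception being Camk2a, against 48.9% of all genes.

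**Figure D4:**
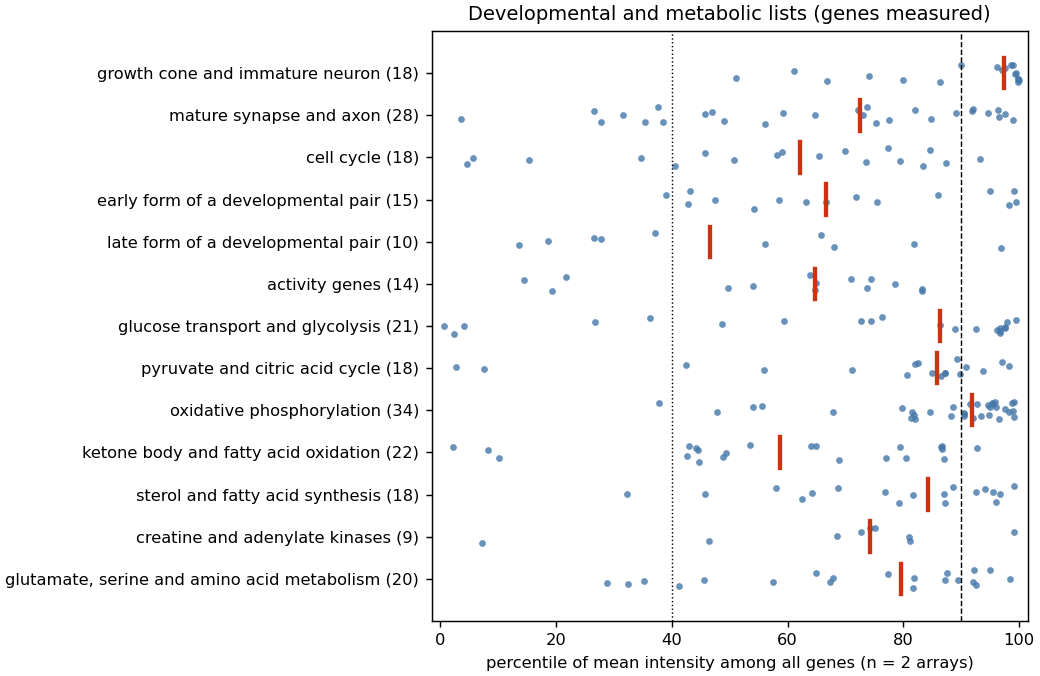
Percentile of mean intensity over 2 arrays (x axis) for each measured gene (points) of 6 stage lists and 7 metabolic lists (y axis, number of genes in brackets), with the list's median as a red bar. The dotted and dashed lines mark the dim and bright limits. Growth cone genes have a median of 97.4 and oxidative phosphorylation genes of 91.8, and late forms have the lowest median, 46.6.

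Few transmitter and peptide receptor genes were bright, and the share of dim genes differed between their lists. The lists of transmitter and peptide receptors held 114 measured genes, including the scaffold gene Gphn. Of these, 2 were bright and 55 (48.2%) dim, where by definition 10% and 40% of all genes are. Dim were 16.7% of the NMDA subunit genes and 57.1% of the GABA-A subunit genes. The median percentile of the lists ran from 34.1 for neuropeptide, opioid and cannabinoid receptors to 60.9 for NMDA subunits. NMDA receptors are glutamate-gated calcium channels that need the subunit Grin1, which read 60.3 and 121. Grin2d, Grin2c, Grin2b and Grin3a, given above, had percentiles from 58.6 to 66.7, and Grin2a was the only dim one of the 6. Other probe sets of Grin1 read 68.8 and 74.2, 64.4 and 68, and 52.6 and 42.4, close to each other on the arrays.

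AMPA receptors carry fast excitatory transmission, and 1 of their 4 subunit genes was dim. Gria1 read 178 and 119, Gria2, the subunit that limits calcium entry, 61.2 and 86.6, Gria4, which is high in the young hippocampus, 54.8 and 52.7, and Gria3 17.7 and 35.8. Of the 6 kainate and delta receptor genes, Grik5 stood apart at 378 and 500, percentile 89.1. The others were Grik4, at 79.5 and 92.8, Grik3, at 83.2 and 70.0, Grik1, at 82.5 and 50.8, the delta receptor gene Grid1, at 50.2 and 46.4, and Grik2, the only dim one, at 37.5 and 31.5. Grik4 and Grik5 encode the subunits that bind kainate with high affinity.

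Metabotropic glutamate receptors signal through G proteins, and 3 of the 7 measured genes were dim. Grm3, found on glia as well as neurons, read 117 and 133, Grm4 113 and 130, Grm7 107 and 98.6 and Grm2 64.0 and 85.7. Grm6, a receptor of the retina, read 36.2 and 34.2, Grm8 24.8 and 19.5, and Grm5, which is abundant in the young forebrain, 16.9 and 27.4.

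GABA-A receptors are chloride channels of 5 subunits, and 8 of 14 measured subunit genes were dim, with a median percentile of 37.0. Gabra5, the alpha subunit typical of the hippocampus, was the brightest, at 401 and 303, percentile 86.0, but a second probe set of it read 63.0 and 55.5. Gabrd, whose second probe set read 120 and 121, Gabrb2 (83.1 and 144), Gabra2, Gabra3 (64.2 and 54.9) and Gabrg1 (55.1 and 63.7) lay between the dim and bright limits. The dim ones were Gabre (49.7 and 42.4), Gabrr1 (47.1 and 28.3), Gabra4 (35.7 and 38.3), the cerebellar subunit Gabra6 (34.2 and 26.9), Gabrp (24.3 and 20.2), Gabrb1 (7.12 and 9.30), the retinal subunit Gabrr2 (6.23 and 5.74) and Gabrg3 (4.60 and 6.03). The last 3 lay below the highest foreign control on both arrays.

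By the mean of both arrays and the brightest probe set, the 2 bright transmitter receptor genes were the subunits of the GABA-B receptor, the G protein coupled receptor for GABA. Gabbr1 read 997 and 944 and Gabbr2 609 and 399, so Gabbr2 was not bright on the second array, where Grik5 was. The other probe sets of Gabbr1 read 345 and 306, 141 and 143, and 52.3 and 66.7, and those of Gabbr2 190 and 133 and 158 and 99.3, none of them bright. The scaffold gene Gphn, gephyrin, which anchors glycine and GABA-A receptors, read 195 and 179. The glycine receptor subunits were lower, Glra2 and Glra1 as given above and Glra3 at 0.98 and 8.31, both below the highest foreign control.

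**Figure D5:**
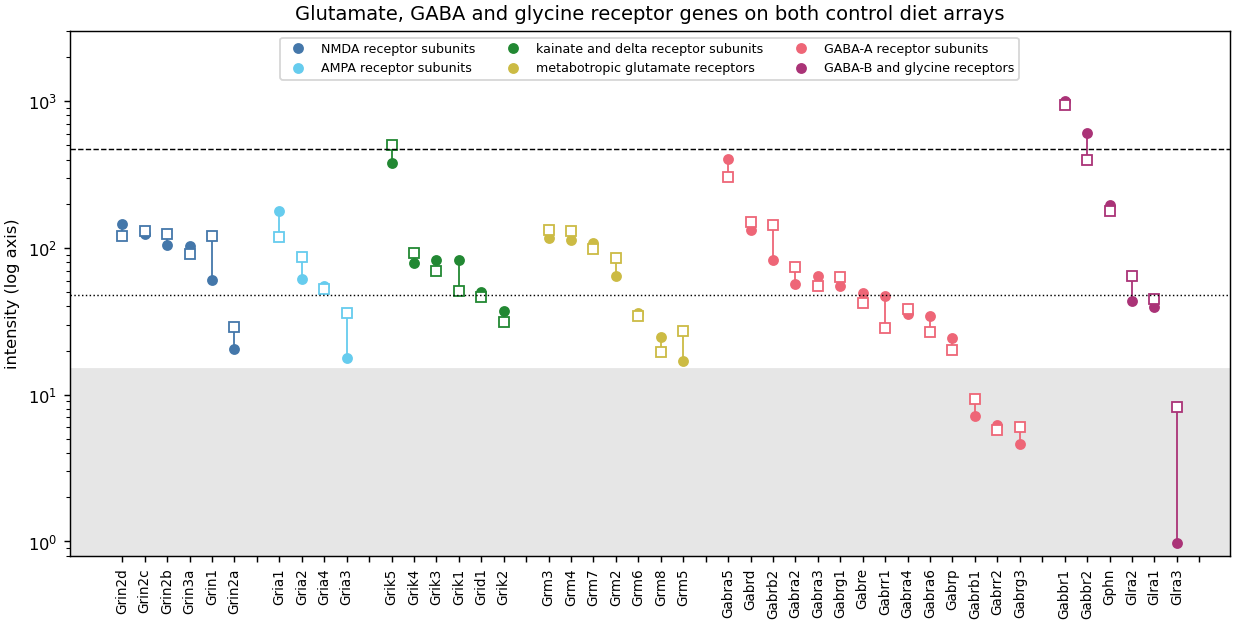
Intensity (y axis, log scale) of 43 genes of the glutamate, GABA and glycine receptor lists (x axis). Values are from the first (filled circles) and second (open squares) control diet array, joined by a line and coloured by list. The scaffold gene Gphn is included. The dashed and dotted lines mark the bright and dim limits, and the grey band lies at or below the highest bacterial or yeast control, 15.1. Gabbr1 lies above the bright limit on both arrays, and Gabrb1, Gabrr2, Gabrg3 and Glra3 lie in the grey band on both.

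Receptors for other transmitters had no bright gene. Of 20 acetylcholine receptor genes 11 were dim. Chrng, the fetal muscle subunit, read 205 and 208, the muscarinic receptor gene Chrm3 229 and 173, Chrnb4 99.0 and 98.7 and Chrna4 82.7 and 93.1. The lowest were Chrna2, at 13.6 and 12.8, Chrnb3, at 13.9 and 11.4, and Chrna6, at 7.78 and 14.5. Of 28 monoamine receptor genes 15 were dim, and the highest, the dopamine receptor gene Drd3, at 293 and 317, rested on 1 probe set while its other read 3.9 and 6.0. Adra1d read 95.4 and 121, Htr5b 96.2 and 97.0 and Htr3a 58.6 and 120. The other probe set of Adra1d read 3.75 and 7.97. The serotonin receptor genes Htr1b, Htr1a and Htr1f were the lowest, at 7.61 and 10.1, 5.99 and 7.21, and 2.4 and 3.40.

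Of 23 neuropeptide, opioid and cannabinoid receptor genes 13 were dim. The cannabinoid receptor gene Cnr1 read 201 and 248, the somatostatin receptor gene Sstr2 174 and 196, Adcyap1r1 111 and 119 and the cholecystokinin receptor gene Cckbr 109 and 115. Galr3, Galr1 and Npy5r were the lowest, at 4.82 and 4.32, 1.99 and 2.79, and 0.66 and 0.87. Among 19 receptor tyrosine kinase and neurotrophin receptor genes 1 was bright and 5 dim. Fgfr1 read 538 and 439, the receptor of brain-derived neurotrophic factor Ntrk2 363 and 292, and Ngfr 224 and 242. Flt1, Egfr and Erbb4 were the lowest, at 12.8 and 18.0, 20.4 and 10.4, and 6.79 and 9.74.

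Nuclear receptors had 3 bright and 8 dim genes of 20, with a median percentile of 58.8, which was 25 over genes with a single probe set. The thyroid hormone receptor gene Thra read 2391 and 2812 and the retinoic acid receptor gene Rara 1125 and 700. Nr2f1, a regulator of cortical patterning, read 713 and 685 and the retinoid receptor gene Rxrg 371 and 313. Ppara, Rarb and Pparg were the lowest, at 8.67 and 8.80, 7.98 and 6.91, and 1.53 and 3.53. Among the 10 measured transporters for glutamate, GABA and glycine, Slc1a3 and Slc32a1 were bright. The neuronal glutamate transporter gene Slc1a1 read 306 and 220, the glycine transporter gene Slc6a9 223 and 290, and Slc6a5, of glycine neurons, 23.7 and 24.2.

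The metabolic lists held 47 bright and 16 dim of 142 measured genes (33.1% and 11.3%), beside 24 bright of 98 in the stage lists (24.5%). With the highest 5% as bright the counts were 28 of 142 and 20 of 98, so the order of these 2 kinds depends on the limit. Oxidative phosphorylation, the respiratory chain and ATP synthase of mitochondria, led with a median percentile of 91.8 and 21 bright genes of 34. Cox8a read 3218 and 2902, Cox4i1 2814 and 3010, Cox6a1 2418 and 2602 and Cox6b1 1662 and 2382, all subunits of cytochrome oxidase. The ATP synthase gene Atp5f1b read 2781 and 2857 and the Rieske protein gene Uqcrfs1 1635 and 1467. The 1 dim gene was Cox8b, a form of heart and skeletal muscle, at 33.4 and 53.8. Cox5a, a core subunit of cytochrome oxidase, read 69.5 and 63.0 and Ndufs1, of complex I, 86.0 and 78.7.

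Of 21 measured genes of glucose transport and glycolysis 9 were bright and 5 dim, with a median percentile of 86.4, which was 39.3 over genes with a single probe set. Eno1, Pgk1 (2060 and 1463), Pkm (1495 and 1560), Pgam1 (1467 and 1578), Aldoc and Ldhb (1263 and 1252) were the brightest. The 3 lowest were forms or transporters of other tissues, Ldhc of testis, at 3.13 and 3.93, Eno3 of muscle, at 3.32 and 1.81, and Slc2a2 of liver and pancreas, at 1.64 and 0.76. Pgk1 was also among the genes whose probe sets differed most, the lowest of its 3 reading 2.60 and 7.18.

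In the citric acid cycle and pyruvate oxidation 4 of 18 genes were bright and 2 dim, with a median percentile of 85.8. The malate dehydrogenases Mdh2 and Mdh1 read 2124 and 2017 and 1479 and 1193, Idh1 821 and 579, Dlst 534 and 498, the pyruvate dehydrogenase gene Pdha1 479 and 435, and Idh2 396 and 483. Pdk1 read 59.4 and 45.9. Dim were Pdk4, which restrains pyruvate oxidation in fasting, at 5.94 and 5.77, and the testis form Pdha2, at 2.26 and 3.44.

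Genes that burn ketone bodies and fat were lower, with a median percentile of 58.8 and 1 bright and 3 dim of 22. Acat1, which splits acetoacetyl-CoA, read 600 and 659, the lactate and ketone transporter gene Slc16a1 431 and 316 and the hydroxybutyrate dehydrogenase gene Bdh1 402 and 331. Hadha read 337 and 394, Acaa2 415 and 311 and Hadhb 283 and 225, all of mitochondrial fat oxidation. The lowest were Acadm, at 7.76 and 7.21, Hadh, at 7.06 and 5.35, and the peroxisomal gene Ehhadh, at 1.85 and 3.17.

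The sterol and fatty acid synthesis list held 6 bright and 1 dim gene of 18, with a median percentile of 84.3. Over genes with a single probe set its median was 66.1, and that of ketone and fat oxidation 61.7. The desaturase gene Scd2 read 3003 and 2847, the citrate lyase gene Acly 1345 and 1123, the isoprenoid synthase gene Fdps 1104 and 1018, Acat2 1022 and 852, fatty acid synthase (Fasn) 762 and 728 and the squalene epoxidase gene Sqle 671 and 561. The lowest were the sterol regulator gene Srebf1, at 65.3 and 124, Ebp, at 60 and 62.2, and the carboxylase gene Acaca, the only dim one, at 42.7 and 24.4.

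Among creatine and adenylate kinases the brain creatine kinase gene Ckb was the 1 bright gene of 9, at 2856 and 2919. Gatm and Gamt, which make creatine, read 276 and 249 and 183 and 208, and the mitochondrial kinase gene Ckmt1 276 and 240. The creatine transporter gene Slc6a8 read 189 and 155, and the adenylate kinases Ak4 and Ak3 228 and 146 and 151 and 139. The muscle forms Ckm and Ckmt2 read 68.2 and 57.1 and 4.33 and 6.90. Amino acid metabolism had 5 bright and 3 dim genes of 20. Beside Glul these were Glud1, at 992 and 726, Got2, at 608 and 627, the branched-chain transaminase gene Bcat1, at 690 and 498, and Phgdh, which starts serine synthesis, at 536 and 618. Ddah1, which breaks down methylated arginines, read 525 and 364. The dim genes were Aldh5a1, at 37.9 and 38.6, Bcat2, at 22.6 and 45.1, and the liver glutaminase gene Gls2, at 26.2 and 30.0.

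Genes of other organs gave the dim reference. The lists of liver, pancreas, skeletal and heart muscle, kidney and gut, and reproductive tissues held 142 measured genes, of which none was bright and 102 (71.8%) were dim. Their medians ran from percentile 17.6 for testis, prostate and breast to 35.1 for kidney and gut. Named after their values were seen, the highest were the muscle myosin gene Myh3, at 407 and 392, and the insulin gene Ins2, at 382 and 395. Each rested on 1 probe set. The other probe sets of Ins2 read 9.7 and 9.4 and 7.6 and 9.6, and the lowest of Myh3 read 5.7 and 3.2.

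Markers of neighbouring brain regions had 1 bright gene, Calb2 of the thalamus list, and 18 dim of 43. That dim share, 41.9%, was close to the 40% of all genes that are dim by definition. The list medians ran from percentile 37.7 for hypothalamus and pituitary and 46.2 for monoamine cell bodies to 78.5 for thalamus. In the hypothalamus and pituitary list Ghrh read 159 and 211, vasopressin (Avp) 165 and 171 and orexin (Hcrt) 136 and 122, the gonadotropin subunits Cga and Lhb 101 and 104 and 42.3 and 67.8, and Cartpt 49.6 and 50.7. The lowest were Pmch, at 5.28 and 7.30, Tshb, at 2.97 and 3.84, and Pou1f1, at 1.52 and 0.47. The striatal list ran from the G protein gene Gng7, at 365 and 352, and Adcy5, at 181 and 153, through Pde1b, at 158 and 146, Tac1, at 100 and 93, Penk, at 81.5 and 90.4, and Adora2a, at 58.6 and 73.6, to Drd2, at 35.8 and 55.2, Drd1, at 25.1 and 29.7, and Rgs9, at 11.9 and 14, the last 3 dim. Of the cerebellar markers Pcp4 read 419 and 411 and Calb1 104 and 93.0, Itpr1 101 and 83.5 and Slc1a6 87.1 and 81.3, and Gabra6 was dim. The other thalamic marker, Prkcd, read 118 and 137. Among genes of monoamine cell bodies Maob read 145 and 106, the serotonin transporter gene Slc6a4 106 and 90.5, Fev 90.9 and 90, the noradrenaline and dopamine transporter genes Slc6a2 and Slc6a3 85.8 and 85.8 and 69.3 and 78.2, and tyrosine hydroxylase (Th) 69.5 and 54.4. Ddc, Dbh and Tph1 were the lowest, at 6.45 and 5.46, 2.96 and 2.79, and 2.88 and 2.11.

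The arrays differed by more than 2-fold in 37 of the 2842 genes of the upper 60%, with 31 higher on the second array and 6 on the first. The widest gap was that of Apbb3, a partner of the amyloid precursor protein, at 10.4 and 106. The tumour necrosis factor receptor gene Tnfrsf1a read 19.6 and 138, the secreted phosphoprotein Spp1 17.7 and 95.5, the translation factor gene Eif5b 19.2 and 90.5, the transaminase gene Kyat1 39.1 and 134, the vesicle protein gene Scamp2 41.6 and 137, Cd4 45.5 and 128 and Tmem47 44.7 and 125. Higher on the first array were the fatty acid transporter gene Slc27a2, at 83.6 and 17.7, and the glycosyltransferase gene Gcnt3, at 86.6 and 31.8. Only 2 bright genes differed by more than 2-fold, both named after their values were seen, the glutamate receptor associated protein gene Grina, at 888 and 1919, and Apbb1, at 323 and 691. Values of such genes rest on 1 array and give no firm level.

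Where a gene had several probe sets, they could lie at both ends of the order. The 5 probe sets of the adducin gene Add1 ran from 1250 and 1184 to 1.96 and 1.78, a span of 95.2 percentile points among probe sets. Those of the proteasome activator gene Psme1 ran from 1875 and 1478 to 2.94 and 2.38, those of Igf2 from 592 and 861 to 0.12 and 2.13, those of the peptide amidating enzyme gene Pam from 723 and 659 to 2.05 and 3.05, and those of the acetyltransferase gene Nat2 from 437 and 591 to 1.32 and 0.87. In each of these genes the arrays repeated the order of the extremes, so the gap lies between probe sets and not between samples. A dim gene with 1 probe set, such as Slc17a7, Mbp or Csf1r, has no second probe set to set beside it.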

How the data were processed

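The 2 control diet arrays, each of 1 sample of hippocampal total RNA, were used as the authors deposited them: 1 linear intensity per probe set and array. Which software made and scaled them is not given in the sources used here. Their 2% trimmed mean was 150.0 on both arrays, so no scaling was added, and no value was identical between the arrays. No detection call or scan batch entered. Of 8740 probe sets that are not controls, 7006 had 1 gene symbol in the platform annotation (6985 with the symbol looked up by gene identifier), 308 had more than 1 and 1426 lacked one, and only the 7006 were used. Lists of 912 genes in 50 groups were written for this description; 702 were measured, 210 were not, and 67 stood in several lists. Genes and lists were chosen with earlier results of these data known. The text names the 25 brightest genes, up to 6 brightest and 3 dimmest of each cell type, stage, metabolic and neighbouring region list, all glutamate, GABA, glycine and developmental pair genes, up to 4 brightest and 3 dimmest of other receptor lists, the 10 genes farthest apart on the arrays in the upper 60%, and the 6 genes with at least 3 probe sets and the widest span. Log2 values used an offset of 10.6, the 20th percentile of all values. Scripts in Python 3.11.15 with pandas 2.3.3, numpy 2.4.6 and scipy 1.17.1 were tested on simulated data. Alternatives were quantile normalization, each array alone, other means, other choices of probe set, an intensity filter, other offsets and other bright and dim limits. Control probe sets as a dim limit, and lists without shared genes, were added after seeing the data. Promoters come from RefSeq on GRCr8.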

Additional observations from a re-analysis of the deposited data

How the results depend on the processing

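Leaving out either array moved no count of bright or dim genes per kind of list by over 1.5 times: bright genes were 40 to 41 for cell types, 24 to 26 for stages, 8 for receptors, 48 to 50 for metabolism, 0 for other tissues and 1 for neighbouring regions. Quantile normalization, other means and leaving out probe sets with a suffix did not either. With the median probe set of each gene, receptor lists had 4 bright genes, neighbouring regions 2, and the SD between arrays was 0.33. Genes with 1 probe set are fewer by construction: 80.7% lay within 1.5-fold; bright were 23 cell type, 14 stage, 1 receptor, 21 metabolic and 2 neighbouring region genes, and dim were 24, 7, 42, 10 and 10, with 58 of other tissues. In the upper 60% of probe sets 90.7% lay within 1.5-fold with an SD of 0.33, and log offsets of 1 and 50 gave SDs of 0.49 and 0.22. With the highest 5% as bright there were 24 cell type, 20 stage, 4 receptor, 28 metabolic and 0 neighbouring region genes, and with the highest 20% 37 stage, 16 receptor, 81 metabolic, 3 other tissue and 3 neighbouring region genes. With dim set at the 90th percentile of the other tissue genes, an intensity of 86.2 that covers 55.3% of genes, 31 stage, 108 receptor and 32 metabolic genes were dim. With the highest foreign control as the limit, chosen after seeing the data, 17 cell type, 7 stage, 24 receptor, 9 metabolic, 53 other tissue and 9 neighbouring region genes were dim. Of 449 list medians under 9 alternatives other than the upper 60% filter 418 stayed within 10 percentile points, and 12 of 50 lists crossed the 50th percentile. Over the upper 60% alone, which drops dim members and ranks the rest among fewer genes, 25 of 50 medians stayed within 10 points; Cajal-Retzius genes went from 48.2 to 90.6, ependymal genes from 36.3 to 2.78 and AMPA subunits from 46.9 to 23.8. No paired analysis was possible because only 1 group was described. The dim end is limited by signal near the control probe sets.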
